A study of Mus musculus with 11 samples.

Results

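Toll-like receptors are membrane proteins that recognise microbial molecules and nucleic acids. From this family 10 mouse genes, Tlr1, Tlr2, Tlr3, Tlr4, Tlr5, Tlr6, Tlr7, Tlr8, Tlr9 and Tlr13, were followed here. They were read in RNA of LSEC (liver sinusoidal endothelial cells, which line the capillaries of the liver and have pores). They are 10 of 19505 genes with a symbol on the Mouse Clariom S array, and each was read from the transcript cluster (the group of probes for 1 transcript) that carries its symbol. The cluster of each receptor was chosen by its symbol and, where a symbol had several, by its measured level over all 11 arrays. Each receptor had only 1 cluster, so the measured level chose nothing among clusters, but the family itself was picked with earlier results of these arrays known. In knockout preparations, 1 of the 10 receptors, Tlr7, was higher by the study's rule, a limit on fold and unadjusted p given below. The other 9 were not called in either direction. By the same rule 0.671% of all 22206 clusters were higher and 0.356% were lower. With limma and Benjamini-Hochberg adjustment over all clusters, 0 had an adjusted p of 0.05 or less, and that of Tlr7 was 0.765.

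The knockout group (5 arrays, titled autophagy deficient) came from mice with floxed Atg5 alleles and VE-cadherin-driven Cre recombinase, written Atg5lox/lox;VE-cadherin-Cre. The wild type group (6 arrays) carried Atg5lox/lox without Cre, so all 11 arrays are from floxed mice and a Cre-only control was not analysed here. VE-cadherin is expressed by endothelium throughout the body, so the deletion is not limited to the liver by design. Mice of both groups were put on a high fat diet at 8 weeks of age and sampled after 2 weeks of it. How the cells were isolated is not given in the sources used here. Nor is it given whether an array holds RNA of 1 animal or a pool, so a p-value sets a difference against a spread between samples that may in part be technical. The study asked how loss of endothelial autophagy affects LSEC early in high fat feeding, with inflammation among its themes.

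Toll-like receptors fall into a cell-surface group, which binds lipoproteins, lipopolysaccharide and flagellin, and an endosomal group, which binds nucleic acids. The endosomal receptors need the chaperone UNC93B1 to leave the endoplasmic reticulum and are trimmed by proteases such as cathepsin S. Most receptors signal through the adaptor MYD88, whereas TLR3 signals through TICAM1 (TRIF) and TLR4 uses both. In the liver, both LSEC and Kupffer cells, the resident macrophages of the sinusoids, express members of the family.

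The values are RMA log2 signals, so a difference of 1 is a doubling of signal, and each probe set has its own scale, so levels of different receptors are not set against each other. Differences are knockout minus wild type with limma's standard error (SE). The study called a gene at a fold of 1.5 or more and an unadjusted p no higher than 0.05, which is called the study's rule here. It was met upwards by 149 of 22206 clusters (0.671%) and downwards by 79 (0.356%). With limma and Benjamini-Hochberg adjustment over all clusters 0 passed (0%), although 1419 had an unadjusted p no higher than 0.05, and the smallest adjusted p was 0.765. All 5 knockout arrays lay above all 6 wild type arrays in 40 clusters (0.18%) and below them in 65 clusters (0.293%).

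All 15 LSEC marker clusters were above background on every array and none met the rule. Their mean level ran from 11.84 to 12.10 in knockout arrays and from 11.81 to 12.03 in wild type arrays. Markers of other cells were present as well. Above background on every array were all 12 hepatocyte, 8 stellate cell and 6 B cell markers and 15 of 16 macrophage markers. Being above background therefore cannot check the labelled cell type. Of 16 measured Kupffer cell and macrophage markers 14 met the rule upwards, with a median difference of 1.13, and their mean per array ran from 7.49 to 10.05 in knockout arrays and from 6.91 to 8.28 in wild type arrays. Of 12 hepatocyte markers 8 met it downwards, with a median difference of -0.97. The 6 neutrophil, 6 B cell, 6 T and NK cell, 8 stellate cell and 11 monocyte and dendritic cell markers held 0 called members in either direction. The monocyte receptor Ccr2 was the only marker of these lists at or below background on every array. Knockout array 2 stood apart with a macrophage marker mean of 10.05, and wild type array 5 had the highest mean of its group, 8.28. In these bulk preparations a higher or lower number of cells of a type and more or less RNA per cell cannot be told apart.

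Atg5 read 7.48, 7.57, 7.54, 7.90 and 7.53 in the knockout arrays, against a lowest, median and highest value of 7.38, 7.535 and 7.59 in wild type. The difference was 0.10 (SE 0.10, exact permutation p = 0.245). Where its probes lie relative to the floxed exon is unknown here, and the level of Atg5 can check no label. Signal from Y-linked genes was above background in 1 knockout array and 2 wild type arrays, which bears on Tlr7, Tlr8 and Tlr13 since they lie on chromosome X.

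Promoter sequences show how differently the receptor genes begin. They are given for 4 endosomal receptors whose levels behave differently across the arrays below, and whether letters and levels go together was not tested. RefSeq promoters (GRCm38.p6, 250 bases before to 50 after the annotated start, 5′ to 3′ on the gene's strand) were held for 8 of the 10 receptors. Tlr4 and Tlr7 are named only. Capitals mark matches, on either strand, to 5 motifs of factors of myeloid or inflammatory genes. These are GAGGAA for the ETS factor PU.1, TTNNGCAA for C/EBP factors, TGANTCA for AP-1, GAAANNGAA for interferon regulatory factors and GGGANTTTC for NF-kB. No base of the printed promoters lay in more than 1 match. The Tlr3 window lies at chr8:45410331-45410630, minus strand, the Tlr8 window at chrX:167264280-167264579, minus strand, the Tlr9 window at chr9:106222348-106222647, plus strand, and the Tlr13 window at chrX:106143025-106143324, plus strand.
Tlr3: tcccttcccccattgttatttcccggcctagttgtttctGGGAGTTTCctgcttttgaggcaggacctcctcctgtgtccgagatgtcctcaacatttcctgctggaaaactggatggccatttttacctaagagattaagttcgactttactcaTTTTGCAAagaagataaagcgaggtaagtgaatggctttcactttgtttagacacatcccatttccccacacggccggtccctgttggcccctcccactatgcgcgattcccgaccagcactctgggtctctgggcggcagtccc
Tlr8: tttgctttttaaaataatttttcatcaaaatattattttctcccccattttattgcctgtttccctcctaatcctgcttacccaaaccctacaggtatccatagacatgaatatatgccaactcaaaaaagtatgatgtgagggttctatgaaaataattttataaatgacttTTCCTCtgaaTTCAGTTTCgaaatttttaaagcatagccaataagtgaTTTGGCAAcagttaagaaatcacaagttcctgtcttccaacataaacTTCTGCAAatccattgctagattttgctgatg
Tlr9: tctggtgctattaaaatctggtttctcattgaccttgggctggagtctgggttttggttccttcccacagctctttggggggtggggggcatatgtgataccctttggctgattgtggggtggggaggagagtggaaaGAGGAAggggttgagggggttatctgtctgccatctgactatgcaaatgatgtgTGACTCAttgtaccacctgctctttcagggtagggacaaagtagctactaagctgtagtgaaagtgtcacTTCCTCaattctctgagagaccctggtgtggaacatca
Tlr13: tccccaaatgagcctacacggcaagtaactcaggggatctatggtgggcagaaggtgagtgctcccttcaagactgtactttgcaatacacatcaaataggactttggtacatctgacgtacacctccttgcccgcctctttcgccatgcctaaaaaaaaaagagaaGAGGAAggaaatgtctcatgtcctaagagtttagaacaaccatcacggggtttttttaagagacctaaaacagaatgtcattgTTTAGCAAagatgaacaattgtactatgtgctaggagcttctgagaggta
The Tlr3 window held 1 NF-kB and 1 C/EBP match and none for PU.1. The Tlr8 window held 1 PU.1, 2 C/EBP and 1 interferon match, the Tlr9 window 2 PU.1 matches and 1 AP-1 match, and the Tlr13 window 1 PU.1 and 1 C/EBP match. Among 32851 promoters of this length, 28.3% held the PU.1 letters, 10.8% the C/EBP letters, 7.81% the AP-1 letters, 8.56% the interferon letters and 1.11% the NF-kB letters. Of the receptors not printed, Tlr2 and Tlr5 held 0 matches to any of the 5 motifs and Tlr6 held 0 for PU.1. A Tlr6 window held 1 C/EBP and 2 interferon matches, and its other window held 0 matches. A Tlr1 window held 1 PU.1 match, and its other window held 0 matches. A match is a description of the letters and no evidence of binding.

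**Figure D1:**
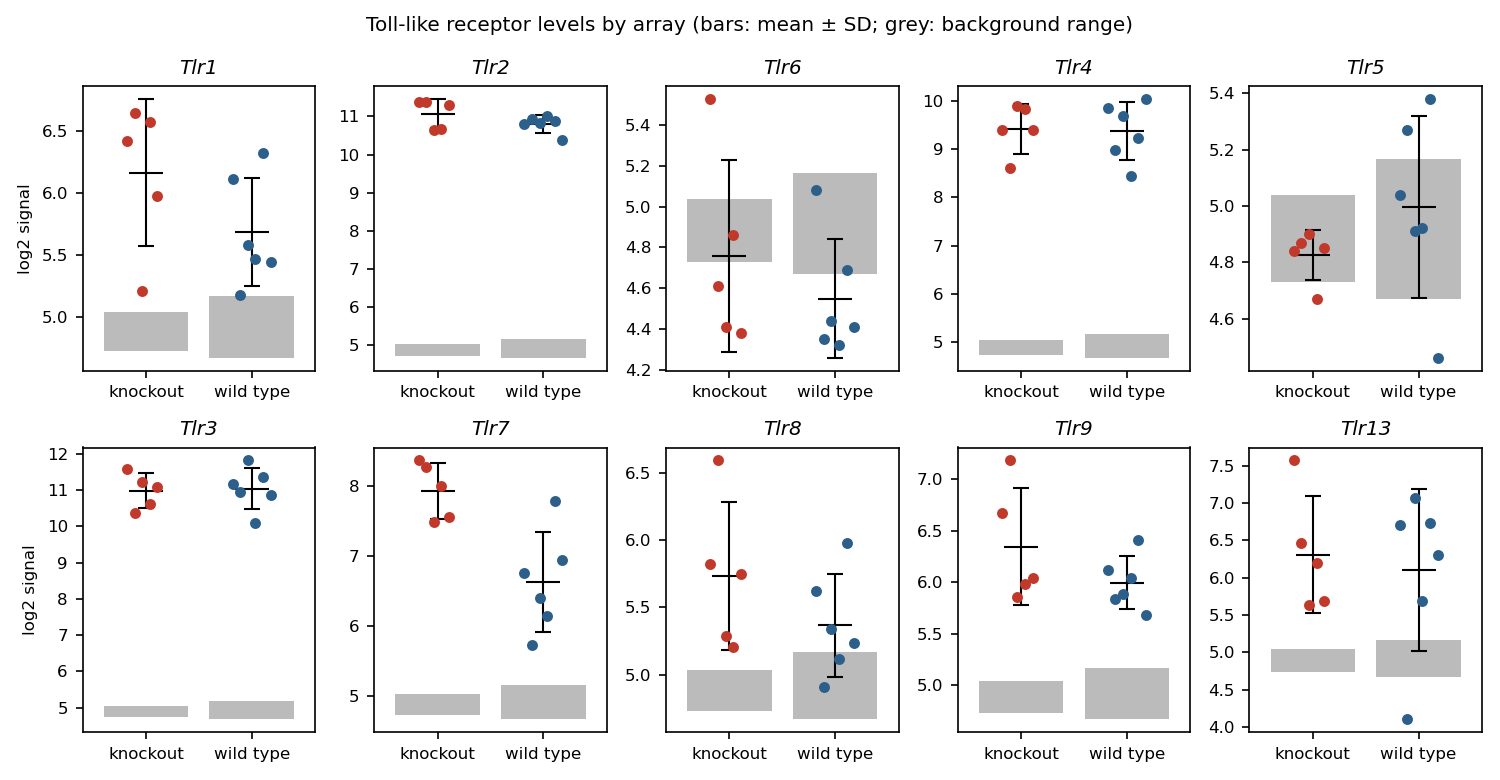
Log2 signal of the 10 receptors, with 1 point per array (5 knockout arrays in red on the left, 6 wild type arrays in blue on the right of each panel), mean ± SD as bars, and the range of each group's antigenomic background means as a grey box. The vertical scale differs between panels. Tlr7 is the panel with the widest separation of the groups, with 1 wild type array at 7.78 among the knockout values, and Tlr5 and Tlr6 lie around the background.

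Of the cell-surface receptors none was called in either direction. Of the 5 differences 4 were above 0, and all 5 were within the spread of the arrays. Tlr2, which binds bacterial lipoproteins as a dimer with TLR1 or TLR6, read 11.39, 11.38, 10.64, 10.68 and 11.29 in the knockout arrays, against a lowest, median and highest value of 10.37, 10.865 and 11.02 in wild type. Knockout arrays 1, 2 and 5 were above every wild type array and knockout arrays 3 and 4 were below the wild type median, and the difference was 0.27 (SE 0.17, exact permutation p = 0.169).

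Tlr1 had a wider gap. It read 6.42, 6.64, 5.21, 6.57 and 5.97 in the knockout arrays and 5.18, 5.525 and 6.32 as lowest, median and highest value in wild type. Knockout array 3 was close to the lowest wild type array while 3 knockout arrays exceeded the highest, and the difference was 0.48 (SE 0.27, exact permutation p = 0.154). Leaving out knockout array 3 gave 0.72 and leaving out wild type array 5 gave 0.61, and Tlr1 met the study's rule in both cases. Without knockout array 2 the difference was 0.36 and the rule was not met. Tlr6, the partner of TLR2 for diacylated lipoproteins and the neighbour of Tlr1 on chromosome 5, was near background. It exceeded its own array's antigenomic mean on 2 of 5 knockout arrays and 1 of 6 wild type arrays, and the difference was 0.21 (SE 0.21), and 0.02 without knockout array 1.

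Tlr4, the lipopolysaccharide receptor, did not differ between the groups beyond their spread. It read 9.39, 8.60, 9.89, 9.84 and 9.40 in the knockout arrays, against 8.45, 9.465 and 10.04 as lowest, median and highest value in wild type. The groups overlapped over nearly their whole range, the difference was 0.05 (SE 0.29), and the 95% interval ran from -0.58 to 0.68. Tlr5, the flagellin receptor, was at background in most arrays. It exceeded the antigenomic mean on 1 of 5 knockout arrays and 4 of 6 wild type arrays, with a difference of -0.17 (SE 0.15).

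Among the endosomal receptors, Tlr7 was higher in knockout preparations. Tlr7, a receptor for single-stranded RNA that drives interferon and cytokine genes, read 8.36, 8.26, 7.48, 7.99 and 7.56 in the knockout arrays. Its wild type arrays read 6.75, 5.73, 6.40, 6.14, 7.78 and 6.94. Below every knockout array were 5 of 6 wild type arrays, and wild type array 5, at 7.78, lay among the knockout arrays.

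Tlr7 averaged 7.93 ± 0.40 (SD, n = 5 knockout arrays) against 6.62 ± 0.71 (SD, n = 6 wild type arrays), a difference of 1.31 (SE 0.31), or 2.47-fold, with a 95% interval from 0.64 to 1.97. The unadjusted limma p was 0.000924 and the exact permutation p was 0.0108. Adjusted over all 22206 clusters by Benjamini-Hochberg, limma's p was 0.765, so the call rests on the study's rule and not on an adjusted threshold. One of 10 receptors met the rule upwards, where 0.671% of all clusters did, and 0 of 10 met it downwards, where 0.356% did.

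The call of Tlr7 was kept with each array left out in turn, with differences from 1.13 to 1.54. The highest value came without wild type array 5, when the 2 groups no longer overlapped and the SE fell to 0.24. Without knockout array 2 and wild type array 5 together, the arrays of highest macrophage marker mean in their groups, it was 1.46. With the mean of Y-linked genes as a covariate it was 1.28.

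Tlr8, another receptor for single-stranded RNA and the neighbour of Tlr7 on chromosome X, did not meet the rule. It read 5.82, 6.59, 5.29, 5.21 and 5.75 in the knockout arrays, against 4.91, 5.29 and 5.98 as lowest, median and highest value in wild type. Only knockout array 2 was above all wild type arrays, and the difference was 0.36 (SE 0.25, exact permutation p = 0.229). Without that array it was 0.15.

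The Tlr7 minus Tlr8 difference within an array was looked at after both genes' values were seen, so it is given as a description. It was 2.54, 1.67, 2.19, 2.78 and 1.81 in the knockout arrays, against a lowest, median and highest value of 0.82, 1.095 and 1.80 in wild type. Tlr8 read near background on several arrays, where RMA compresses differences.

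Tlr9, the receptor for unmethylated CpG DNA, read 6.67, 7.18, 5.86, 5.98 and 6.04 in the knockout arrays, against 5.68, 5.965 and 6.41 as lowest, median and highest value in wild type. Knockout arrays 1 and 2 were above every wild type array and the other 3 lay inside the wild type range. The difference was 0.35 (SE 0.22, exact permutation p = 0.212), and 0.14 without knockout array 2.

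Tlr3, the receptor for double-stranded RNA and the member that does not use MYD88, did not separate the genotypes. It read 11.59, 10.37, 11.23, 10.62 and 11.10 in the knockout arrays and 10.10, 11.06 and 11.82 as lowest, median and highest value in wild type. All knockout arrays lay inside the wild type range, with a difference of -0.06 (SE 0.28) and a 95% interval from -0.66 to 0.54.

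Tlr13, a receptor for bacterial ribosomal RNA in mice, had the widest spread of the 10 within each genotype. It read 7.57, 6.46, 5.64, 6.19 and 5.69 in the knockout arrays. The wild type arrays read 6.71, 4.10, 7.07, 5.69, 6.73 and 6.31. Wild type array 2 was below its background and knockout array 1 was the highest of all, and the SDs were 0.78 in knockout and 1.09 in wild type. The difference was 0.21 (SE 0.49), with a 95% interval from -0.85 to 1.26, wide enough to hold the differences of Tlr8 and Tlr9.

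Over the receptors followed, 8 of 10 differences were above 0 and the median of the 10 was 0.24. Of all clusters 46.0% were above 0, and the median of all clusters was -0.02. None of the 10 receptors had all knockout arrays above all wild type arrays (0.18% of clusters did) or below them (0.293% did). The adjusted limma p-values of the 10 receptors ran from 0.765 to 0.984.

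The macrophage and hepatocyte marker means themselves differ between genotypes, and adding them to the fit moved most receptor differences. The study's rule was met upwards by 1238 of all clusters (5.58%) with the macrophage mean, by 505 (2.27%) with the hepatocyte mean and by 139 (0.626%) with both, so a call under these fits is read against those shares. Tlr7 was at 0.92 (SE 0.36) with the macrophage mean and at 1.72 (SE 0.37) with the hepatocyte mean, and met the rule in each. With both together it was 1.39 (SE 0.74) and no longer met the rule. The difference was no smaller than on genotype alone (1.31, SE 0.31), but its SE was larger.

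With the macrophage mean 2 of 10 receptors met the rule upwards, Tlr7 and Tlr4, the second at 0.70. With the hepatocyte mean 4 did, Tlr7, Tlr8 at 0.88, Tlr9 at 0.85 and Tlr1 at 0.75, and with both means 0 did. The SE of every receptor was larger with both means than on genotype alone. Tlr1 was at 0.06 with the macrophage mean. Between the macrophage and the hepatocyte fit, 6 receptors lay on opposite sides of 0. Tlr8 was at -0.21 (SE 0.21), Tlr9 at -0.19 (SE 0.18) and Tlr2 at -0.05 with the macrophage mean, and Tlr2 was at 0.48 with the hepatocyte mean. Tlr4 was at -0.50 with the hepatocyte mean. Tlr3 was at 0.21 with the macrophage mean and at -0.28 with the hepatocyte mean, and Tlr5 was at -0.31 and 0.02 in that order. Tlr6 hardly moved, at 0.24 with the macrophage mean and 0.21 with the hepatocyte mean.

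**Figure D2:**
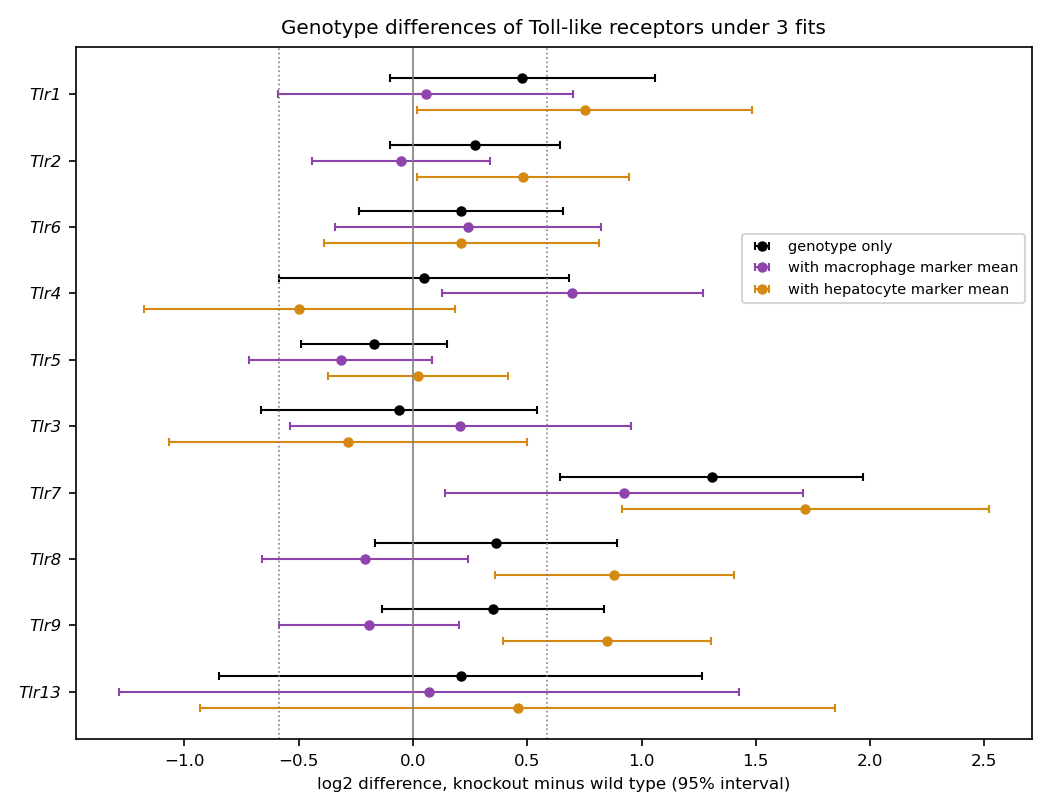
Log2 difference of each receptor, knockout minus wild type, with 95% intervals, from the fit on genotype alone (black), with the macrophage mean added (purple) and with the hepatocyte mean added (orange). Dotted lines mark a fold of 1.5 in each direction. Tlr7 is above 0 in all 3 fits (1.31, 0.92 and 1.72), whereas Tlr8 and Tlr9 are below 0 with the macrophage mean and above 0 in the other fits.

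Levels were then set against marker means across the 11 arrays after subtracting each genotype's mean, in 60 relations with exact permutation within genotypes and Benjamini-Hochberg adjustment. An adjusted p of 0.05 or less for Pearson's r was reached by 2 relations, and both involve the mean of the array's intron control probes, which read intron sequence. Tlr4 rose with it (r = 0.85, permutation p = 0.00156, adjusted p = 0.0469; rho = 0.92, permutation p = 0.000613, adjusted p = 0.0368). Without wild type arrays 1 and 6, the farthest from the median, r was 0.81 over 9 arrays. Tlr2 fell with it (r = -0.78, permutation p = 0.000822, adjusted p = 0.0469; rho = -0.69, permutation p = 0.0112, adjusted p = 0.134), and without the same arrays r was -0.91. The intron control mean ran from 5.05 to 5.75 in knockout arrays and from 5.08 to 5.96 in wild type arrays, so it did not separate the genotypes.

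The closest relation of Tlr13 was with the neutrophil marker mean and just missed the adjusted threshold. Its r was 0.78 (permutation p = 0.00265, adjusted p = 0.053) and rho was 0.83 (permutation p = 0.00273, adjusted p = 0.0546), with r = 0.71 without knockout arrays 1 and 5. The neutrophil marker mean ran from 6.16 to 8.26 in knockout arrays and from 6.35 to 7.52 in wild type arrays. Knockout array 1 was the highest in both this mean and Tlr13.

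Tlr9 had r = 0.84 with the macrophage marker mean (permutation p = 0.00729, adjusted p = 0.0899; rho = 0.72, permutation p = 0.0400, adjusted p = 0.172) and r = 0.79 without knockout arrays 2 and 5. Tlr8 had r = 0.81 (permutation p = 0.0105, adjusted p = 0.0899; rho = 0.56, permutation p = 0.118, adjusted p = 0.368), and r = 0.57 without those arrays, so its relation rests in part on them. The hepatocyte marker mean gave similar values, r = 0.77 for Tlr9 (permutation p = 0.00806, adjusted p = 0.0899; rho = 0.68, permutation p = 0.0348, adjusted p = 0.161) and r = 0.72 for Tlr8 (permutation p = 0.0226, adjusted p = 0.151; rho = 0.62, permutation p = 0.0638, adjusted p = 0.239). Without knockout array 4 and wild type array 5 these were 0.69 for Tlr9 and 0.51 for Tlr8. Tlr4 ran the opposite way to the macrophage mean, with r = -0.75 (permutation p = 0.00928, adjusted p = 0.0899) and rho = -0.84 (permutation p = 0.00127, adjusted p = 0.0382), and r = -0.61 without knockout arrays 2 and 5. Over knockout arrays Tlr4 had r = -0.99 with the macrophage mean and 0.96 with the intron control mean. Over wild type arrays these were -0.57 and 0.80. The 2 means ran in opposite order over knockout arrays, from 10.05 and 5.05 in array 2 to 7.49 and 5.75 in array 3. Wild type array 5 likewise had the highest macrophage mean (8.28) and lowest intron control mean (5.08) of its group. Relations of a receptor with these 2 means therefore cannot be told apart with these arrays. For Tlr7, the receptor called between genotypes, r with the macrophage marker mean was 0.42 (permutation p = 0.145, adjusted p = 0.373), rho was 0.23 (permutation p = 0.509, adjusted p = 0.768) and r was 0.57 without knockout arrays 2 and 5. Its closest relation was with the neutrophil marker mean, at r = 0.57 (permutation p = 0.0432, adjusted p = 0.216) and rho = 0.69 (permutation p = 0.0257, adjusted p = 0.161), with r = 0.54 without knockout arrays 1 and 5. Within genotypes that r was 0.92 over the knockout arrays and 0.46 over the wild type arrays.

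**Figure D3:**
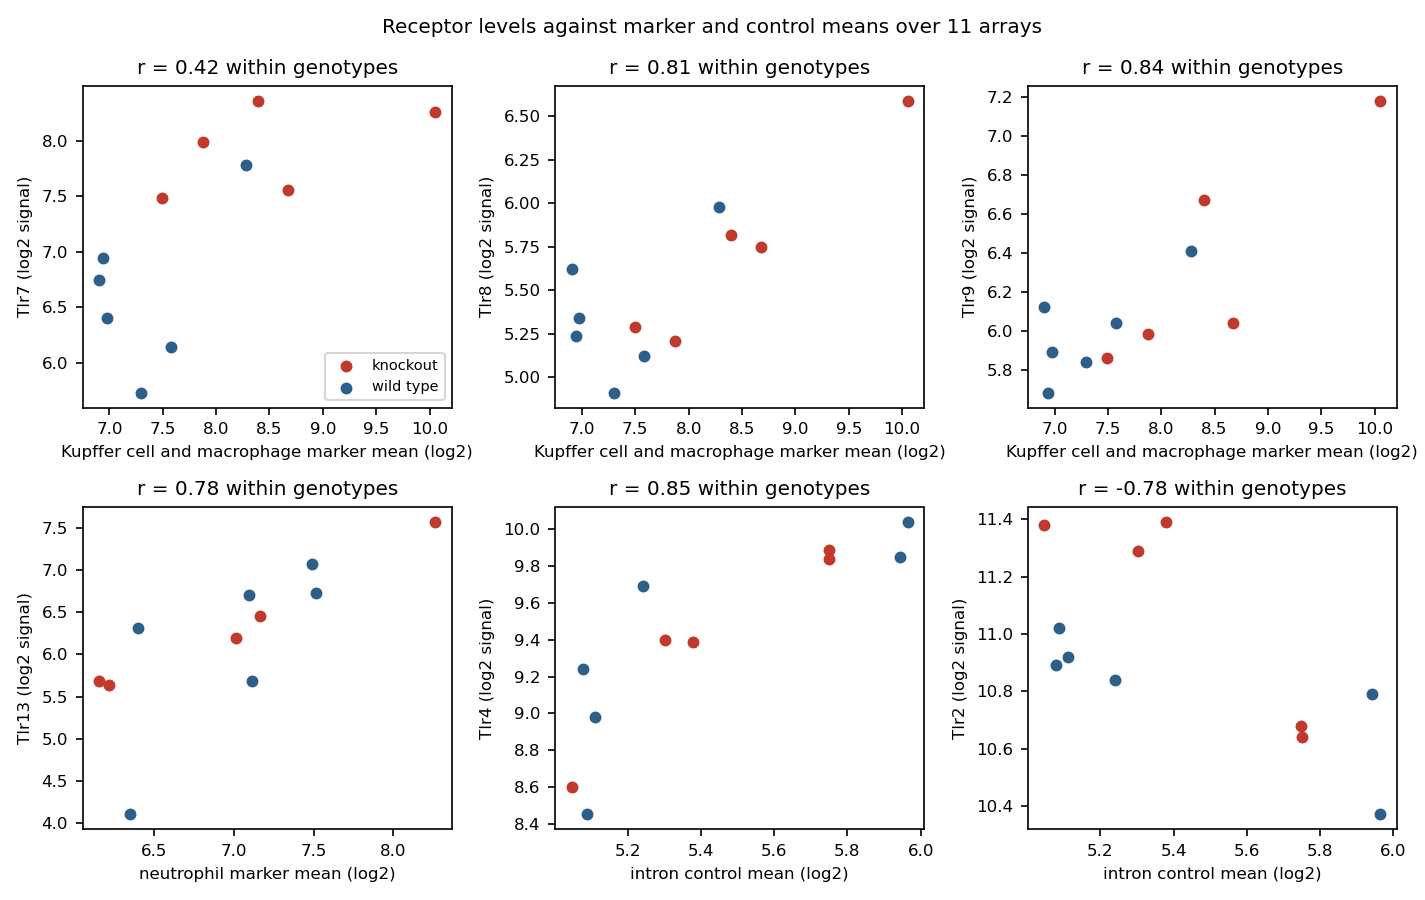
Log2 signal of a receptor (vertical) against the mean log2 signal of a marker list or of the intron controls (horizontal), 1 point per array, 5 knockout arrays in red and 6 wild type arrays in blue. The r above each panel is over the 11 arrays after each genotype's mean was subtracted. For Tlr7 the knockout points lie above the wild type points, apart from wild type array 5, while for Tlr9 both groups follow 1 band (r = 0.84).

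Among the 45 pairs of receptors, 15 had an r above 0.5 over the 11 arrays and 9 were below 0, again after subtraction of genotype means and as a description of arrays that share these markers. Tlr8 and Tlr9 were the closest pair (r = 0.87). Tlr7 went with Tlr1 (0.76), Tlr13 (0.73) and Tlr8 (0.69), and Tlr2 and Tlr4 were the most opposed (-0.76).

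Candidates were 15217 genes with a mean over all arrays above background, leaving out Gm-numbered, Rik, LOC, olfactory and vomeronasal receptor symbols. Those closest to Tlr7 in this measure were Slc16a6 (r = 0.94), Jchain (0.94) and Igsf6 (0.93). Slc16a6 is a member of the monocarboxylate transporter family and Jchain is the joining chain of secreted immunoglobulins. The genotype difference was 0.03 for Slc16a6, -0.50 for Jchain and 1.24 for Igsf6. On wild type array 2 Slc16a6 (4.51) and Jchain (4.76) were below that array's background of 5.17. Jchain was also below background on knockout arrays 2 (5.03 against 5.04) and 3 (4.72 against 4.88) and on wild type array 4 (4.98 against 5.05). Closest to Tlr9 were Tyrobp (0.97), the signalling adaptor of many myeloid receptors, Rbm47 (0.96), an RNA-binding protein, and Selplg (0.96), the P-selectin ligand of leukocytes. Closest to Tlr8 were Gabpb1 (0.95), Map3k5 (0.94) and Fabp7 (0.93). Closest to Tlr13 were Gpd2 (0.98), Ghr (0.97), the growth hormone receptor, and Dapp1 (0.96). These are the highest of many values, so r is inflated by selection.

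For Tlr4 the 3 closest genes, Wac, Pdzd8 and Dmtf1, all had r = 0.99. Tlr3 was closest to Taf9b (0.98), Cetn3 (0.95) and the interferon-inducible GTPase Iigp1 (0.95). Tlr1 was closest to Frmd6 (0.94), Notch2 (0.92) and the integrin gene Itga4 (0.91). Tlr2 was closest to Cand2, Hcrtr1 and Abhd12 (0.93 to 0.94), Tlr6 to Slc7a11, Il1f9 and Gpr141 (0.91 to 0.94) and Tlr5 to Pcyox1l, Ntmt1 and Thoc7 (0.90 to 0.91). No gene was named for more than 1 receptor.

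The proteins that hold, move or trim the receptors were next. Of 15 co-receptor and trafficking genes, 3 met the study's rule upwards (0.671% of all clusters did) and 0 downwards (0.356% did), with a median difference of 0.19. The 3 were Cd180 and Ly86 (MD-1), which form a complex related to TLR4 and MD-2, and Ctss, cathepsin S.

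Cd180 read 8.78, 9.22, 8.05, 8.51 and 8.29 in the knockout arrays, against 6.78, 7.595 and 8.77 as lowest, median and highest value in wild type. Its difference was 0.92 (SE 0.30, exact permutation p = 0.0303), and 5 of 6 wild type arrays were below every knockout array. It met the rule with each array left out in turn.

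Ly86 read 8.15, 9.76, 6.93, 7.32 and 8.19 in the knockout arrays, against 6.60, 6.71 and 8.02 as lowest, median and highest value in wild type. Its difference was 1.06 (SE 0.43), and knockout array 2 was far above the others. Ctss differed by 1.01 (SE 0.40). Ly86 met the rule in only 5 of 11 fits with an array left out, at differences from 0.64 to 1.35. Ctss also met it in 5 of 11, from 0.70 to 1.27. Both lost it without knockout array 1 or 2 and without wild type array 2, 3 or 6, among others.

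These counts changed with the marker mean in the fit. With the macrophage mean in the fit 0 of the 15 met the rule, and the differences were 0.33 for Cd180, -0.21 for Ly86 and -0.11 for Ctss. With the hepatocyte mean 5 met it, where 2.27% of all clusters did upwards. They were Cd180 at 1.57, Ly86 at 2.06, Ctss at 1.98, Cd14 at 1.13 and Unc93b1 at 0.64. With both 0 met it, and Cd180 was at 1.11 (SE 0.57). On genotype alone Cd14, which hands lipopolysaccharide to TLR4, differed by 0.54 (SE 0.29) and Unc93b1 by 0.22 (SE 0.22). Ly96 (MD-2), the subunit of TLR4 that holds lipopolysaccharide, differed by 0.04 (SE 0.26).

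Of 19 measured adaptor and kinase genes, 0 met the rule in either direction (0.671% of all clusters did upwards and 0.356% downwards). The median difference was 0.16, and 17 were above 0, where 46.0% of all clusters were. The mean of the list ran from 8.11 to 8.31 in knockout arrays and from 7.96 to 8.10 in wild type arrays. All 5 knockout arrays thus lay above all 6 wild type arrays in this mean, by a narrow margin (8.112 against 8.095). The share of 0.18% given for such separation is for single clusters. How often a mean of as many genes separates was not tested, so this is a description only. Myd88 differed by -0.05 (SE 0.26) and Ticam1 by 0.10 (SE 0.22). Irf7, the factor downstream of TLR7 and TLR9 for type I interferon genes, differed by 0.17 (SE 0.23). The smallest p-values were those of Ikbkg at 0.29 (SE 0.14), the regulatory subunit of the IkB kinase, Irf5 at 0.37 (SE 0.20), a factor for inflammatory cytokine genes, and Tirap at 0.17 (SE 0.11), the bridging adaptor of TLR2 and TLR4. With the macrophage mean in the fit Tab3 at 1.11 and Map3k7 at 0.60 met the rule upwards, where 5.58% of all clusters did. Limma's adjusted p in that fit was 0.177 for Tab3 and 0.285 for Map3k7. Myd88 was at -0.58 (SE 0.25), Ticam1 at -0.36 (SE 0.21) and Irf7 at -0.19 (SE 0.26) in the same fit, all short of the rule. With the hepatocyte mean Pik3ap1 at 0.91, Irf5 at 0.74 and the kinase Irak2 at 0.65 met it, where 2.27% of all clusters did.

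Of 11 measured negative regulators 0 met the rule either way (0.671% of all clusters did upwards and 0.356% downwards). Their median difference was 0.13, and 9 were above 0, where 46.0% of all clusters were. Tnfaip3 (A20), a ubiquitin-editing inhibitor of NF-kB, differed by 0.23 (SE 0.10) with an unadjusted limma p of 0.0373, below the fold the rule asks for. Irak3, the inhibitory kinase of the MYD88 complex, differed by 0.34 (SE 0.17), and the deubiquitinase Cyld by 0.35 (SE 0.25). Cyld met the rule upwards with the macrophage mean in the fit, at 0.89, where 5.58% of all clusters did.

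Of 19 measured response genes, which Toll-like receptors and other inflammatory signals induce, 10 met the rule upwards (0.671% of all clusters did) and 0 downwards (0.356% did), with a median difference of 0.69. The list was drawn up with the inflammatory differences of these arrays known, so its direction is no independent evidence. The largest was Il10, an anti-inflammatory cytokine, at 8.36, 9.27, 7.76, 7.53 and 8.08 in the knockout arrays, against 5.96, 6.56 and 7.57 as lowest, median and highest value in wild type. Its difference was 1.57 (SE 0.33, exact permutation p = 0.00649).

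Il6 read 8.57, 9.23, 8.02, 8.46 and 8.53 in the knockout arrays, against 6.41, 6.79 and 8.79 in wild type as lowest, median and highest value. Wild type array 5 again held the highest wild type value, among the knockout arrays, and the difference was 1.49 (SE 0.36). Cd86, a costimulatory ligand of T cells, differed by 1.10 (SE 0.25).

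The chemokines Ccl2, which draws monocytes, Ccl5 and Cxcl2, which draws neutrophils, differed by 0.78 (SE 0.19), 0.92 (SE 0.27) and 0.69 (SE 0.19). Ifnb1, the interferon beta gene, differed by -0.14 and Cxcl10, an interferon-induced chemokine, by -0.03, and neither met the rule. They are outside the naming rule and were added as the interferon branch of the list after their values were seen. With the macrophage mean in the fit 3 of the 19 response genes met the rule, where 5.58% of all clusters did upwards. They were Il10 at 0.74, Ccl2 at 0.78 and Cd86 at 0.62. Il6 was at 0.75, Cxcl2 at 0.44 and Ccl5 at 0.35 in that fit, all short of the rule. With the hepatocyte mean 13 met it (2.27% of all clusters did), with Il10 at 2.44, Il6 at 2.15 and Cd86 at 1.54. With both means Il10 alone met it, at 1.68, while Ccl2 was at 0.68 (SE 0.52) and Cd86 at 0.93 (SE 0.53). On genotype alone Cxcl2 lost the call without knockout array 1.

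**Figure D4:**
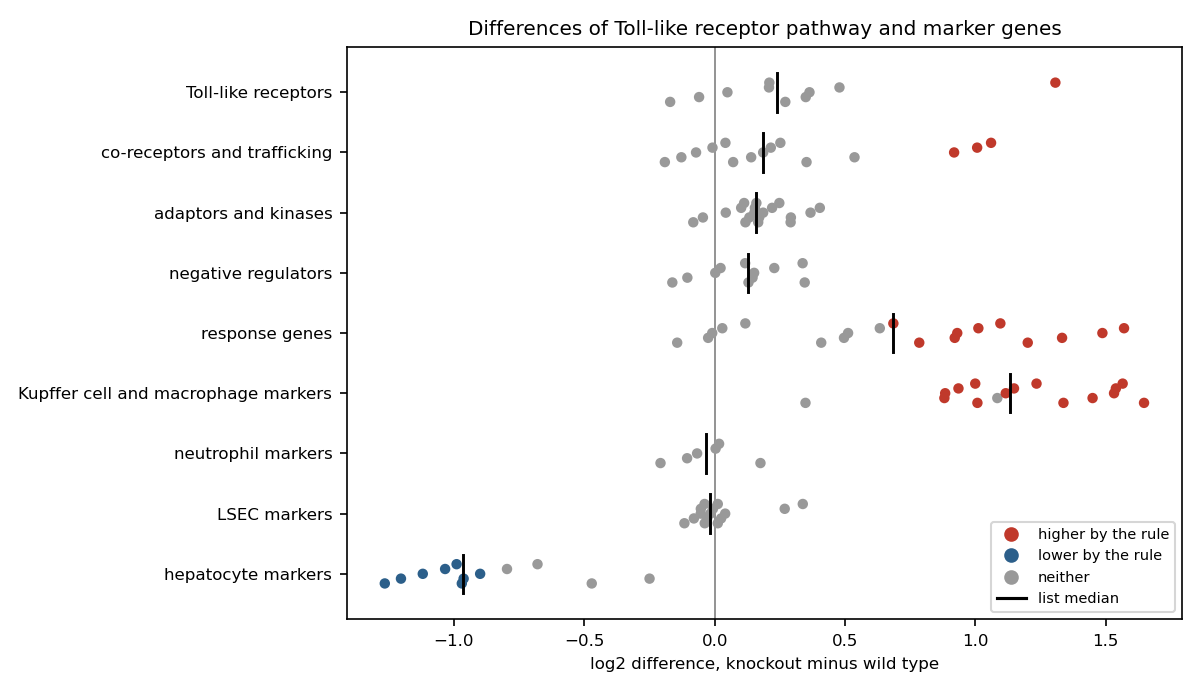
Log2 differences, knockout minus wild type, of the measured genes of 9 lists, 1 point per gene, red where a gene met the study's rule upwards, blue where it met it downwards and grey otherwise, with the list median as a black bar. Of the receptors, adaptors and negative regulators only Tlr7 is red, and the medians of these lists lie above 0 (0.24, 0.16 and 0.13). The response genes have 10 of 19 points in red. The macrophage markers (14 of 16 red) and hepatocyte markers (8 of 12 blue) lie on opposite sides.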

How the data were processed

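RNA from LSEC of 11 samples (5 knockout, 6 wild type, from the titles) was measured on Mouse Clariom S arrays. Trizol total RNA was biotin-labelled with a whole-transcript kit, per the labels' protocols. The arrays were processed by the authors in Affymetrix Expression Console with RMA, per the submitters' processing notes, and no version of either is stated there. The deposited values are log2 signals (range 1.86 to 13.79, array medians 6.61 to 6.75), a scale read from their range. RMA makes the arrays' distributions equal at the level of probes, and the medians of the deposited cluster values still differ slightly. A shift shared by most genes is therefore largely removed, and weak signals are compressed. The number of arrays limits the precision.

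Of 28846 rows, 6640 controls were left out and 22206 clusters were tested with limma 3.58.1 in R 4.3.3 (lmFit, eBayes, genotype only, Benjamini-Hochberg over all clusters). The study's rule names no test, so limma's p was used for it. Single genes were also tested by a two-sided exact permutation over 462 splits of the arrays (smallest p 0.0022). Background is the mean of 23 antigenomic control rows on the same array. By the platform annotation 19572 clusters had 1 symbol, 0 had several and 2634 had none, and 0 symbols changed against RefSeq. Some listed genes, such as Irak1, Irak4 and Traf3, were not analysed here. Members and gene lists were chosen with earlier results of these data known. Named genes were all receptors, 6 fixed pathway genes, up to 6 called members of a list (otherwise 3 of smallest p) and the 3 genes closest to each receptor. Shared replicate numbers were checked as pairs: deviations of same-numbered arrays correlated between -0.32 and 0.39, so the numbers were treated as names. The fit was tested on simulated data. Alternatives covered arrays left out, normalization, array weights, marker means as covariates, filters and thresholds. Y-linked, neutrophil and intron control means as covariates, and leaving out the arrays of highest macrophage mean, were added after the data were seen.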

Additional observations from a re-analysis of the deposited data

Results flagged for a closer look

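Of 20 groups of receptor values (10 receptors in each genotype), 2 held an array far from the others, where chance flags about 1 in 20 groups. Tlr5 in knockout array 4 was 4.67, with the other knockout arrays between 4.84 and 4.90, all near background. Tlr2 in wild type array 6 was 10.37, with the other wild type arrays between 10.79 and 11.02. That array also had the highest intron control mean of all arrays, 5.96, and its part in the low Tlr2 value was not tested.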

How the results depend on the processing

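Clusters higher in knockout by the study's rule numbered 149, and from 111 to 245 with an array left out. They numbered 99 with array weights, 1238 with the macrophage mean and 505 with the hepatocyte mean as a covariate, 579 without a fold minimum and 46 at a fold of 2. Clusters lower numbered 79, from 37 to 138 with an array left out, and 146, 489, 125, 840 and 14 under the same settings, and 440 with both means. An adjusted p of 0.05 was passed by 0 to 1 clusters with an array left out, 26 with the macrophage mean, 2 with the hepatocyte mean and 1 without the 2 arrays of highest macrophage mean. Receptors called higher numbered 1 to 2 with an array left out, 2 with the macrophage mean, 4 with the hepatocyte mean and 0 with both. Tlr1 turned to -0.14 with both means. Tlr2 turned to -0.0514 with the macrophage mean and -0.19 with both. Tlr3 ranged from -0.25 to 0.10 with an array left out and turned to 0.21 with the macrophage mean, 0.13 with both and 0.16 without the 2 arrays. Tlr4 ranged from -0.14 to 0.26 with an array left out and turned to -0.0539 with repeated quantile normalization, -0.50 with the hepatocyte mean and -0.0038 with the intron control mean. Tlr5 turned to 0.0219 with the hepatocyte mean and 0.0191 with both. Tlr8 turned to -0.21 and Tlr9 to -0.19 with the macrophage mean. Tlr13 ranged from -0.19 to 0.40 with an array left out and turned to -0.14 with array weights. The cause was not tested. With the replicate block the counts were 158 higher and 92 lower and Tlr7 was 1.37, and no receptor call changed. The planned covariate Xist was not analysed here. Signal near background limits Tlr5 and Tlr6.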
